A study of Mus musculus with 6 samples.

Results

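The genes described here are those of integrin alphaV-beta8 and of the latent TGF-beta that it activates, measured in whole brains of mouse embryos. The members were fixed by name as the beta subunit gene Itgb8, the alpha subunit gene Itgav, the ligand genes Tgfb1, Tgfb2 and Tgfb3, and the latent binding protein genes Ltbp1, Ltbp2, Ltbp3 and Ltbp4. Every probe set annotated to one of these 9 genes alone was taken, which gave 22 of the 45037 probe sets that are not array controls. Itgb8 was selected on its higher intensity in these same mutant arrays, so its difference is given as a description without a test, and the other 8 genes were set beside it for their roles. The Foxf2 mutant group held 3 brains of E18.5 embryos and the wild-type group 3 brains of the same age, all on a C57/bl6 background, with 1 Affymetrix array each. The labels name the first genotype only as Foxf2 mutant, and do not give the allele, the sex, the litter or whether embryos were pooled. Foxf2 encodes a forkhead transcription factor of brain pericytes, and the design asks how brain transcripts differ when it is mutated.

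TGF-beta is secreted as an inactive complex, in which the cleaved propeptide, the latency-associated peptide, stays wrapped around the ligand. Latent binding proteins tie this complex to the extracellular matrix, and alphaV integrins bind the propeptide of the Tgfb1 and Tgfb3 products and free the ligand, while the propeptide of the Tgfb2 product lacks that integrin-binding motif. The beta8 chain pairs with alphaV alone. In mouse brain, alphaV-beta8 on neuroepithelial cells, radial glia and astrocytes is known to be needed for intact blood vessels, and embryos without Itgb8 or Itgav bleed into the brain.

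Values are MAS5 intensities, a linear measure of probe set brightness, and differences are mutant minus wild type on the scale of log2(intensity + 16). A probe set counted as above the filter when its mean over all arrays reached the 40th percentile, an intensity of about 13.2. The median intensity per array was 24.3 to 25.5 in mutants and 23.1 to 23.6 in wild type, and 3 array controls for 18S ribosomal RNA averaged 28.1 to 32.3 in mutants and 20.3 to 23.4 in wild type. The brighter Foxf2 probe set read 8.06, 3.31 and 7.57 in mutant brains, against 18.6, 24.4 and 13.8 in wild-type brains, so the groups did not overlap at this dim level. With the allele not described, whether these probes sit in the mutated stretch is unknown. Neuronal markers of the labelled tissue were present, 8 of 8 above the filter and 0 past the threshold, and summed to 15760 to 16220 in mutants and 15660 to 15890 in wild type. Of all 27022 probe sets above the filter, 105 passed limma's test at an adjusted p of 0.05 (0.389%), 99 higher (0.366%) and 6 lower (0.0222%) in the mutant. Leaving out mutant array 1 gave 28 calls, leaving out wild-type array 3 gave 34, and leaving out any of the other 4 arrays or the variance trend gave 0.

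Itgb8, the beta8 subunit, read higher in every mutant brain. Its single probe set read 338, 342 and 323 in mutant brains, against 192, 207 and 211 in wild-type brains. All mutant arrays lay well above all wild-type arrays, and each group was tight. The means were 335 ± 10.3 in mutant and 203 ± 9.96 in wild-type brains (SD, n = 3 each), a ratio of 1.65 and a log2 difference of 0.68 ± 0.07 (SE). With any 1 array left out the log2 difference lay between 0.64 and 0.70. No second probe set for Itgb8 was on hand to set beside it, and whole-brain RNA cannot tell more cells of a type from more RNA per cell.

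Itgav, the alpha subunit that Itgb8 needs as a partner, had 5 probe sets, 2 of them above the filter. Its brightest probe set, 1452784_at, read 194, 246 and 217 in mutant brains, against 171, 171 and 175 in wild-type brains. The mutant arrays all lay above the wild-type arrays, which hardly varied. The means were 219 ± 26.1 in mutant and 172 ± 2.25 in wild-type brains (SD, n = 3 each), a log2 difference of 0.32 ± 0.09 (SE) with a 95% interval of 0.11 to 0.52. This did not pass the test over the whole table (limma, unadjusted p = 0.00761, adjusted p = 0.194). A second Itgav probe set, 1421198_at, read 24.0, 30.7 and 26.5 in mutant and 26.8, 23.4 and 27.4 in wild-type brains, with overlapping groups (log2 difference 0.04 ± 0.13 SE, 95% interval -0.25 to 0.33). The interval of this dimmer probe set does not exclude the value of the brighter one. The other 3 Itgav probe sets were below the filter, and in 2 of them the mutant arrays read lower than the wild-type arrays without overlap. Of these, 1432296_a_at had 8.62, 1.34 and 10.2 in mutant and 12.8, 10.2 and 12.6 in wild-type brains, with mutant 3 just under wild type 2, and 1432678_at had 1.25, 0.472 and 1.42 in mutant and 4.01, 2.36 and 2.02 in wild-type brains. Among all probe sets below the filter the mutants lay wholly above the wild types in 9.95% and wholly below them in 3.01%.

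Ltbp3 encodes a latent binding protein that carries latent TGF-beta to the matrix, and 2 of its probe sets were above the filter. Its brightest probe set, 1438312_s_at, read 210, 214 and 189 in mutant brains, against 112, 171 and 156 in wild-type brains. The groups did not overlap, and wild-type array 1 was the lowest by a wide margin. The means were 204 ± 13.5 in mutant and 146 ± 30.8 in wild-type brains (SD, n = 3 each), a log2 difference of 0.46 ± 0.14 (SE) with a 95% interval of 0.15 to 0.77. It did not pass over the whole table (limma, unadjusted p = 0.00842, adjusted p = 0.201), and without wild-type array 1 the log2 difference was 0.30 (adjusted p = 0.431). The suffix _s_at marks probes that may match several transcripts, and such probe sets made up 6.18% of those tested. The plain probe set of Ltbp3, 1418049_at, read 44.4, 65.6 and 46.3 in mutant and 55.1, 47.7 and 54.7 in wild-type brains. Its groups overlapped, and its log2 difference was -0.02 ± 0.14 (SE; 95% interval -0.34 to 0.30), which turned to 0.06 without mutant array 1. Unlike for Itgav, this interval excludes the 0.46 of the brighter probe set, though the 2 intervals overlap. The remaining 2 Ltbp3 probe sets lay below the filter, with log2 differences of -0.04 and -0.09.

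**Figure D1:**
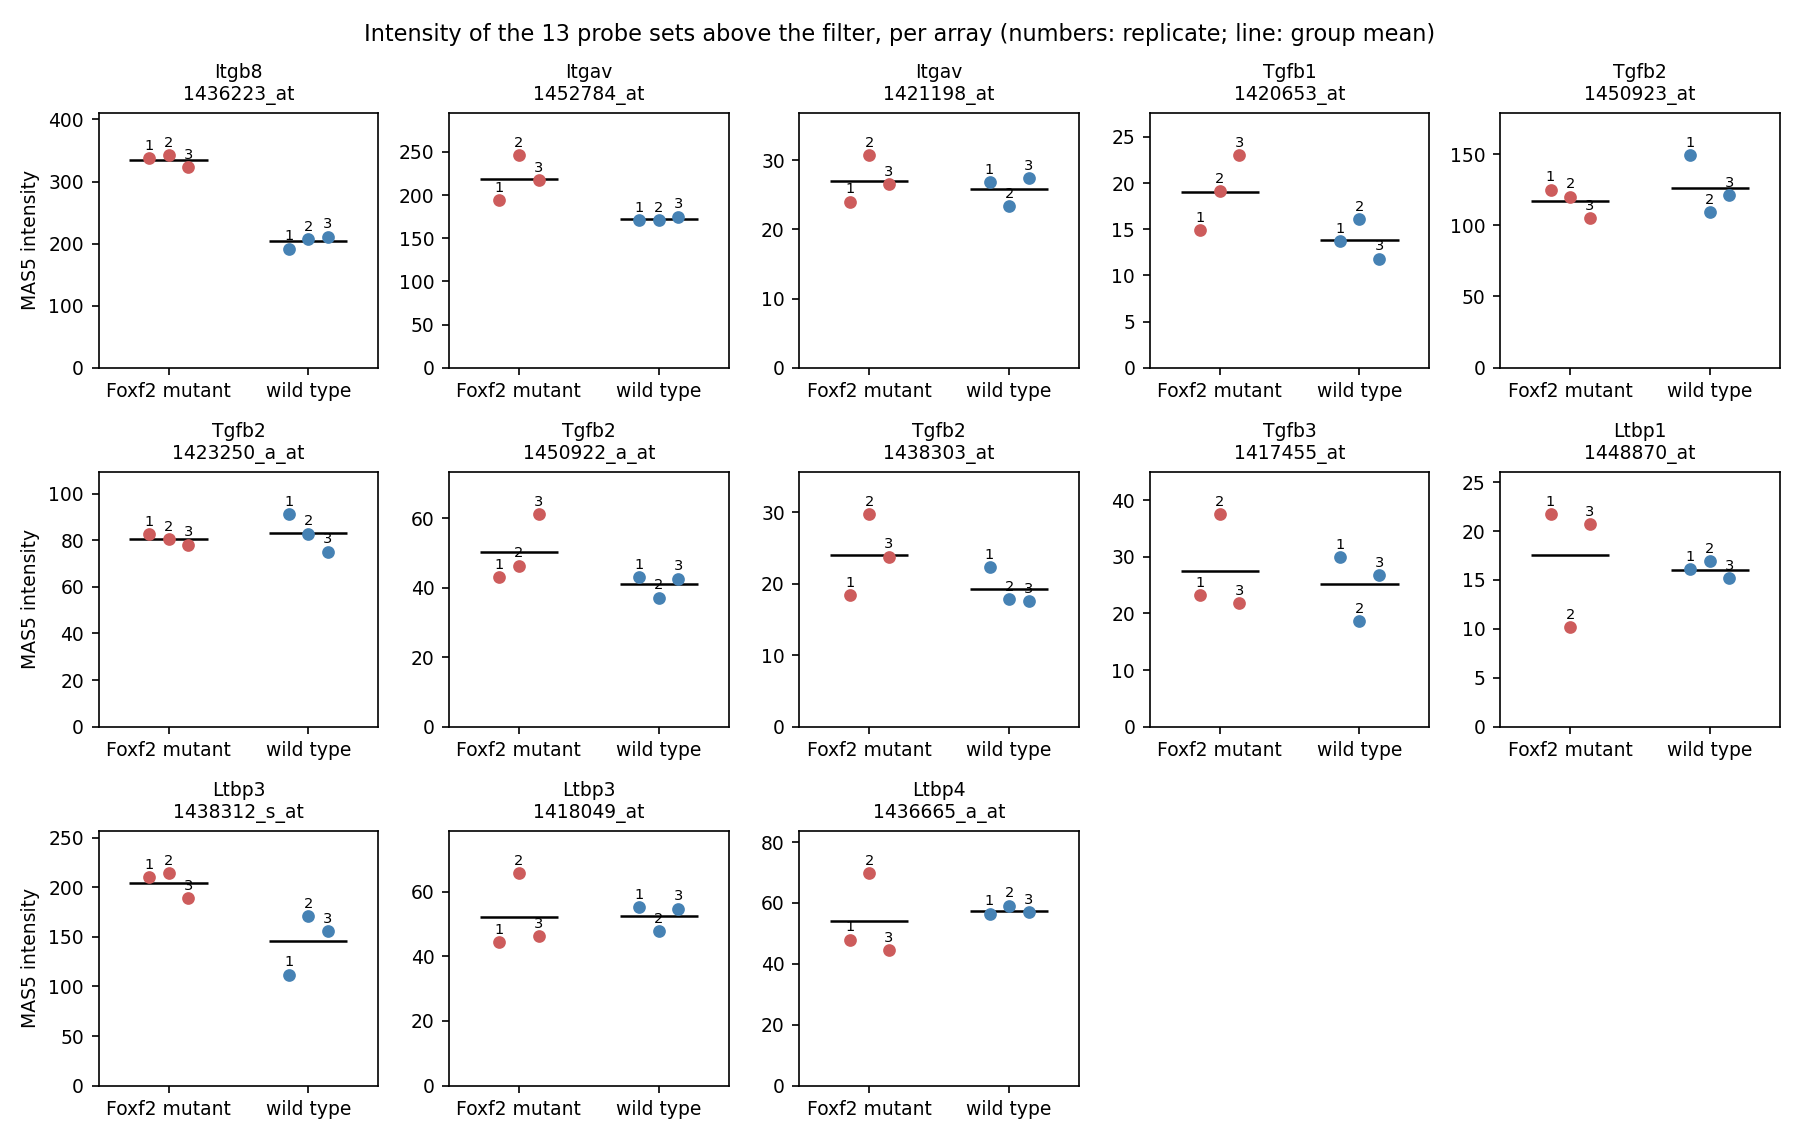
MAS5 intensity (vertical axis, linear, from 0) of the 13 member probe sets above the filter in each Foxf2 mutant and wild-type array, with replicate numbers over the points and lines at the group means. Itgb8 (323 to 342 in mutants, 192 to 211 in wild type), Itgav 1452784_at and Ltbp3 1438312_s_at are the panels in which all mutant arrays lie above all wild-type arrays.

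For these 3 genes, each with a probe set on which the mutant arrays lay above the wild-type arrays, the 300 bases around the gene start are shown. They come from RefSeq (GRCm38.p6) and run 5′ to 3′ from 250 bases before the start to 50 after it, in the direction of the gene. The start used for Itgav lies 2094 bases downstream of the outermost start of its RefSeq gene record, while the other 2 starts match theirs. The letters searched on both strands were the forkhead motif GTAAACA, its core TAAACA, which GTAAACA contains, and the Smad-binding letters CAGACA. Capitals mark each match. The Itgb8 window lies at chr12:119238227-119238526 on the minus strand, that of Itgav at chr2:83724147-83724446 on the plus strand, and that of Ltbp3 at chr19:5740650-5740949 on the plus strand.
Itgb8 promoter: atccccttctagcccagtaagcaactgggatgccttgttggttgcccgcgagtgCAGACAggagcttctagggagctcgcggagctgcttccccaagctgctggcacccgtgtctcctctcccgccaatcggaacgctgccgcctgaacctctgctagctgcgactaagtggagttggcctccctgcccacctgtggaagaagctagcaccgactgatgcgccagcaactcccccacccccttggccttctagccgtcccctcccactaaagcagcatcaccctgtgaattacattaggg
Itgav promoter: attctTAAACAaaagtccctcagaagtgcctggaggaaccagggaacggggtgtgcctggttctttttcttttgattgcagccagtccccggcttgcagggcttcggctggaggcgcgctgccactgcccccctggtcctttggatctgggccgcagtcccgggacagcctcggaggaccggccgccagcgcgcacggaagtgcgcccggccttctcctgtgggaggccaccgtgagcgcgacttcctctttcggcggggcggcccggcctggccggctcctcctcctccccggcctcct
Ltbp3 promoter: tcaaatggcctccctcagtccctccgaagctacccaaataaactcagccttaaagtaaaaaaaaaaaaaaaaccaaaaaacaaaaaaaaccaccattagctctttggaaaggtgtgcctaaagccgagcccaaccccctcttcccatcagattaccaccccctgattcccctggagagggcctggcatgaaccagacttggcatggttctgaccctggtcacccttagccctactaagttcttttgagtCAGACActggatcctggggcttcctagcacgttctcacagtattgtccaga
The Itgb8 window held CAGACA once, and so did that of Ltbp3, where it spans the start. The Itgav window held the forkhead core TAAACA once, near its upstream end. Of the 9 genes, 8 had entries, 11 windows in all, of which 4 held CAGACA, 1 held TAAACA and 0 held GTAAACA. Among all 32851 promoter windows of this length, 21.0% held CAGACA, 13.4% held TAAACA and 3.65% held GTAAACA on either strand. These matches describe letters only.

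No probe set of the ligand genes passed the test. Tgfb1, whose product is freed by alphaV integrins, read 14.9, 19.1 and 23.0 in mutant brains on its brighter probe set, against 13.7, 16.1 and 11.8 in wild-type brains. Mutant array 1 fell inside the wild-type range, and all 6 readings were near the filter. The log2 difference was 0.22 ± 0.14 (SE, limma adjusted p = 0.522), with a 95% interval of -0.09 to 0.54, and its size was set by the offset, with 0.42 at an offset of 1 and 0.09 at 64. The dimmer Tgfb1 probe set was below the filter, at 0.520 to 7.99 in mutant and 0.789 to 6.95 in wild-type brains.

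Tgfb2, the ligand whose propeptide lacks the integrin-binding motif, had 4 probe sets above the filter, and they split in direction. The brightest, 1450923_at, read 125, 120 and 105 in mutant brains, against 149, 109 and 121 in wild-type brains. The groups overlapped throughout, and wild-type array 1 was the highest. Its log2 difference was -0.09 ± 0.12 (SE; 95% interval -0.36 to 0.17), and that of 1423250_a_at, the next brightest, was -0.04 ± 0.10 (SE; 95% interval -0.26 to 0.19). The dimmer 1450922_a_at and 1438303_at had 0.21 ± 0.14 (SE) and 0.18 ± 0.15 (SE), each high in a different mutant array, 61.1 in mutant 3 for the one and 29.7 in mutant 2 for the other. Without that array the log2 differences were 0.095 and 0.074. None of the 4 passed the test (limma adjusted p of 0.540 to 0.908).

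Tgfb3, the other ligand with an integrin-binding propeptide, read 23.3, 37.5 and 21.8 in mutant brains, against 29.9, 18.7 and 26.8 in wild-type brains. The spread within each group was larger than the difference between them, 0.07 ± 0.18 log2 units (SE; 95% interval -0.33 to 0.48; limma adjusted p = 0.890). The sign turned without mutant array 2, to -0.08.

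The other latent binding proteins overlapped between the groups as well. Ltbp1, which anchors latent TGF-beta to fibrillin-rich matrix, read 21.7, 10.2 and 20.7 in mutant brains on its one probe set above the filter, against 16.1, 16.9 and 15.2 in wild-type brains. Mutant 1 and mutant 3 lay above all wild-type arrays and mutant 2 below them. The log2 difference was 0.05 ± 0.16 (SE; limma adjusted p = 0.929), its sign turned to -0.02 with quantile normalization and -0.01 with median centring, and it was 0.22 without mutant array 2. Ltbp4, which binds mainly latent Tgfb1 product, read 48.0, 69.7 and 44.6 in mutant brains, against 56.5, 59.1 and 56.9 in wild-type brains. Again mutant 2 stood on the other side of the wild-type arrays from mutants 1 and 3, here above them. Its log2 difference was -0.09 ± 0.14 (SE; limma adjusted p = 0.837), and -0.24 without mutant array 2 (adjusted p = 0.482). Ltbp2, a family member that does not bind latent TGF-beta, was below the filter, with 10.4, 4.05 and 6.63 in mutant and 5.14, 0.446 and 4.17 in wild-type brains. The 2 remaining Ltbp1 probe sets read at most 4.65 in any array.

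**Figure D2:**
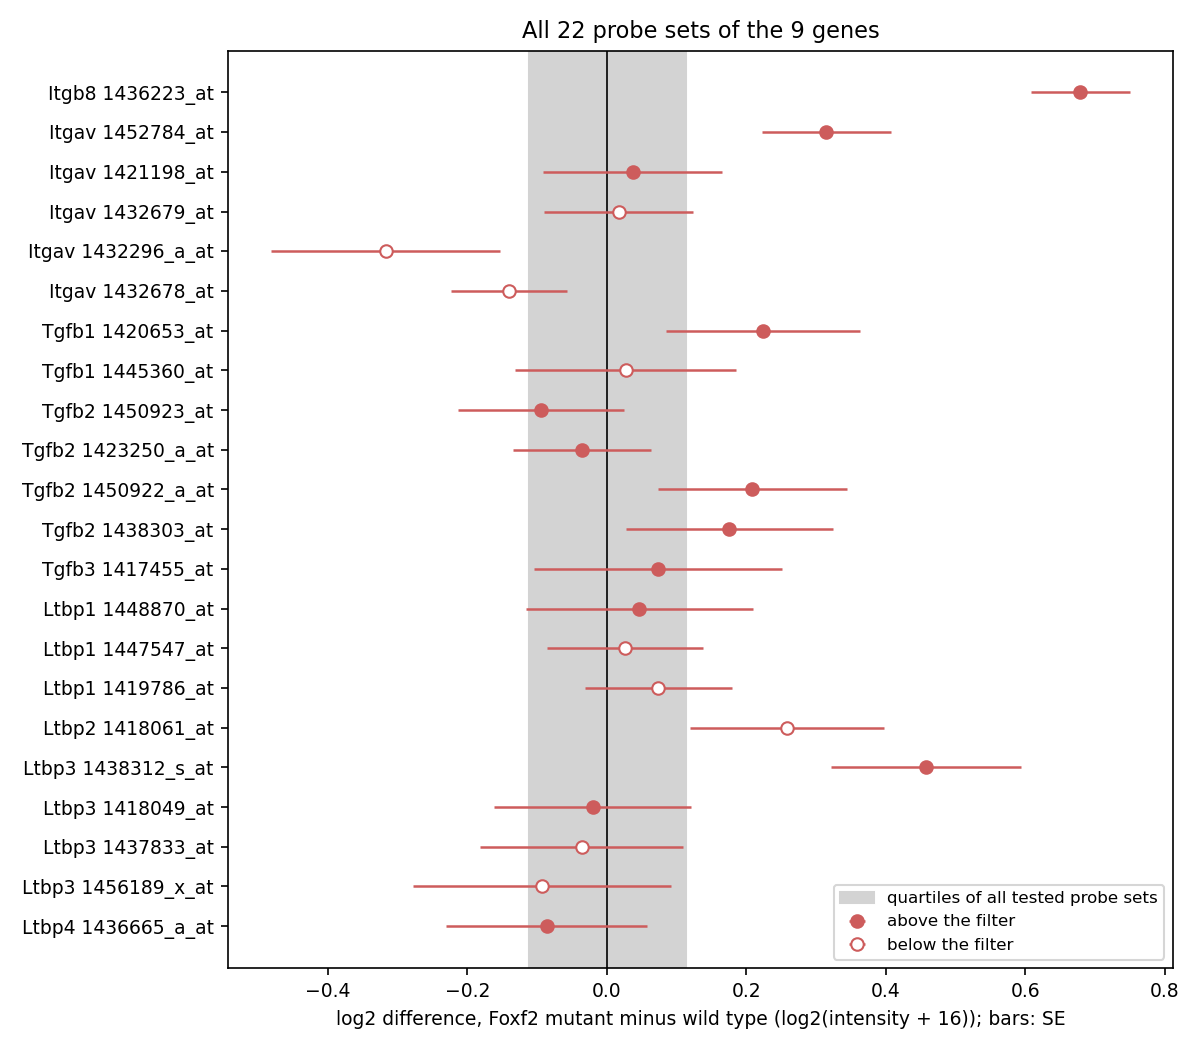
Log2 difference, Foxf2 mutant minus wild type, of all 22 probe sets of the 9 genes, with SE bars, filled points above the filter and open points below it, and a grey band from the lower to the upper quartile of all tested probe sets (-0.11 to 0.11). Itgb8 stands farthest right at 0.68, followed by Ltbp3 1438312_s_at at 0.46 and Itgav 1452784_at at 0.32, while their genes' other probe sets lie near or below 0.

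Counted together without Itgb8, 12 member probe sets were above the filter and 9 were below it. Of the 12, 0 passed limma's test in either direction, while those of Itgav and Ltbp3 named above were the 2 with an unadjusted p under 0.05, both higher, and 0 were lower at that level. Among all tested probe sets 7.76% read higher and 5.79% lower at that level. The mutant arrays lay above the wild-type arrays in 2 of the 12 and below in 0, where the shares over the whole tested table were 10.9% and 9.38%. The median log2 difference of the 12 was 0.06, beside -0.01 over all tested. With 0 past the threshold in each of 16 alternative settings, the lowest adjusted p among them lay between 0.145 and 0.431.

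**Figure D3:**
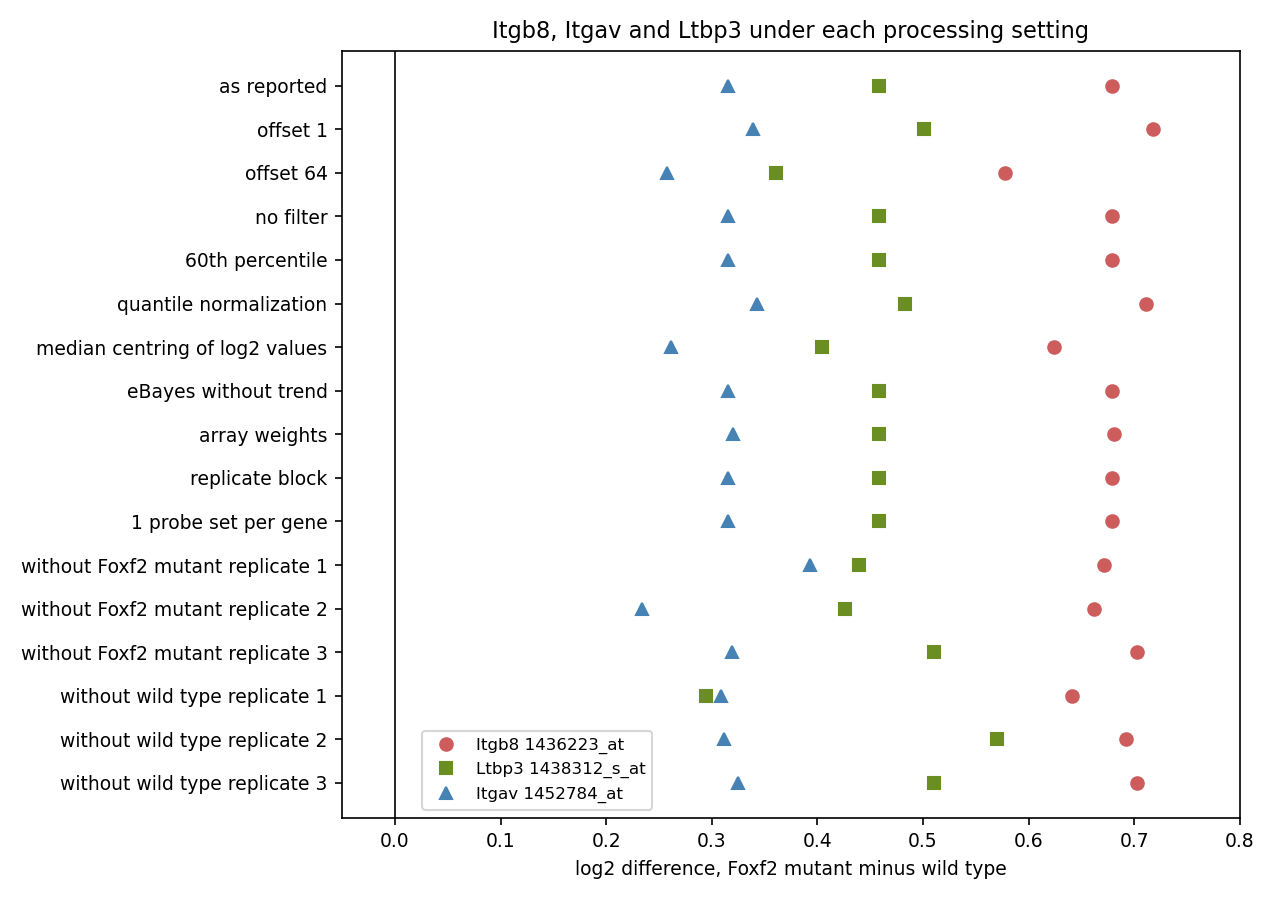
Log2 difference, Foxf2 mutant minus wild type (horizontal axis), of Itgb8 1436223_at, Ltbp3 1438312_s_at and Itgav 1452784_at as reported and under 16 alternative settings (vertical axis). Itgb8, selected for its rise on these same arrays, stays between 0.58 and 0.72. Itgav stays between 0.23 and 0.39, and Ltbp3 between 0.30 and 0.57, its lowest value coming without wild-type array 1.

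Mutant array 2 often read highest among the members, though not always by a wide margin. It was the highest of the 6 arrays in 7 of the 12 probe sets, those of Tgfb3, Ltbp4, Tgfb2 1438303_at and both Itgav and both Ltbp3 probe sets above the filter, whereas it was the highest in 18.6% of all tested probe sets. In Ltbp1 it was the lowest. It was also the one array with a signal from the Y-linked gene Eif2s3y, 260 against at most 2.12 in the other 5 arrays. Its summed meningeal fibroblast markers were the lowest of all arrays, 1695 against 2074 and 2155 in the other mutants and 1707 to 1878 in wild type. Of these 7 markers, all above the filter, 7 read higher in the mutant group and none passed the threshold. The dimmest was Foxc1 at 55.4 on average. In mutant array 2 the radial glia and astrocyte (8651), neuron (16220), choroid plexus (7129) and microglia (726.2) sums were the highest of all arrays. Its erythroid sum, 81.39, was the lowest. The part of any of these in the members' values was not tested.

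**Figure D4:**
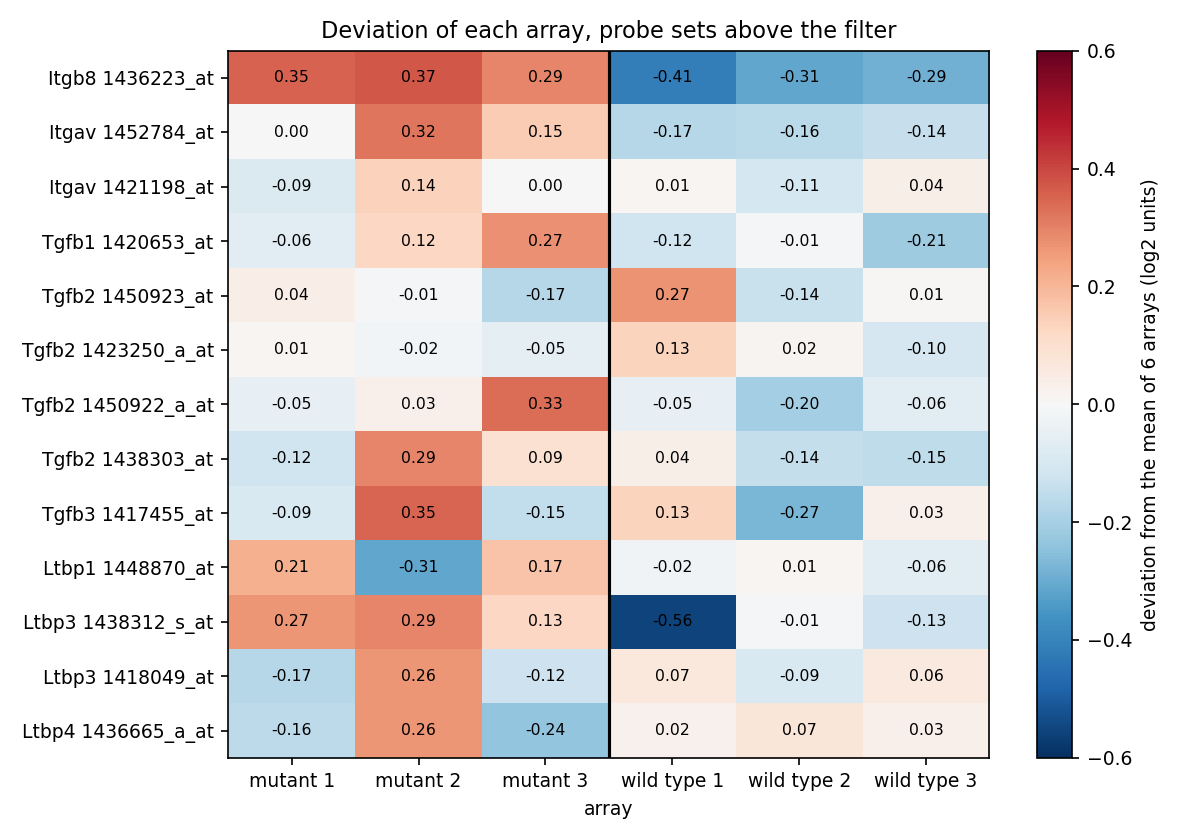
Deviation of each array (columns) from the mean of the 6 arrays, in log2 units (colour and printed value), for the 13 member probe sets above the filter (rows). Itgb8 splits cleanly by genotype, from 0.29 to 0.37 in mutants and -0.41 to -0.29 in wild type, while Tgfb3, Ltbp4 and Ltbp3 1418049_at are highest in mutant 2 and Ltbp1 is lowest there.

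Markers of the cells that could carry the members were read on the same arrays. Radial glia and astrocyte markers, the class in which alphaV-beta8 is best known, had 10 of 10 above the filter and 0 past the threshold, with 6 reading higher and 4 lower. Their summed intensity was 8056 to 8651 in mutants and 7274 to 8186 in wild type, so the groups overlapped, and the dimmest marker was Gfap at 22.8 on average. Without the brightest marker, Fabp7, the sums did not overlap, at 3307 to 3584 in mutants and 2901 to 3287 in wild type. Endothelial markers summed to 691.9 to 747.2 in mutants and 882.2 to 903.4 in wild type, without overlap. Of these 7 markers, all above the filter, 0 passed, 2 read higher and 5 lower, and the dimmest was Cdh5 at 32.8. Without the brightest, Cldn5, the sums were 437.2 to 447.7 in mutants and 494.4 to 522.0 in wild type, still apart. Choroid plexus markers summed to 6811 to 7129 in mutants and 6011 to 6716 in wild type, again without overlap, with 5 of 6 above the filter, all 5 reading higher, 0 past the threshold and Kl dimmest at 6.63. Ttr made up most of that sum, and without it the groups overlapped, at 390.4 to 424.6 in mutants and 269.7 to 423.2 in wild type. The endothelial sum, the median intensity and the 18S controls separated the groups as Itgb8 did. So did the choroid plexus sum with Ttr and the radial glia and astrocyte sum without Fabp7. With arrays centred on their medians the Itgb8 difference was 0.62, and with quantile normalization 0.71. The part of the marker sums and the 18S controls in it was not tested. Microglia markers, 7 of 7 above the filter, summed to 651.1 to 726.2 in mutants and 609.5 to 719.7 in wild type, with overlap. Of these, 6 read higher and 0 lower. Pericyte markers, 6 of 7 above the filter, also overlapped, at 1236 to 1470 in mutants and 1340 to 1636 in wild type. Of these 6, 1 read higher and 5 lower. Markers of tissues around the brain were high on single arrays. Skeletal muscle markers, 3 of 6 above the filter, summed to 1500 in mutant 3 and at most 101.4 in the other arrays, and pituitary markers, 2 of the 5 with a probe set, to 273.6 in mutant 3, 1915 in wild type 3 and at most 75.66 elsewhere. Erythroid markers, 3 of the 4 with a probe set, overlapped at 81.39 to 342.8 in mutants and 150.8 to 244.7 in wild type. In each of these lists 0 passed.

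The 5 lists of other genes that handle latent TGF-beta or lie downstream of the freed ligand gave 0 probe sets past the threshold. Among the beta chains that can also pair with alphaV, Itgb1 and Itgb5 were above the filter and Itgb3 and Itgb6 below it. Itgb1, the broadly expressed beta1 chain, had a log2 difference of -0.16 ± 0.08 (SE, limma adjusted p = 0.429) and Itgb5 of 0.03 ± 0.10 (SE, adjusted p = 0.924). Neither had an unadjusted p under 0.05, and the list median was -0.06.

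Of the 9 genes for anchors and matrix, 6 had a probe set, and all 6 were above the filter. Lrrc32, Fbn1 and Efemp2 had no probe set annotated to that gene alone and so have no value here. Of the 6, 5 read higher and 1 lower, and 0 had an unadjusted p under 0.05. Fbn2, a fibrillin that holds latent binding proteins, had 0.21 ± 0.14 (SE) and Nrros, the anchor of latent TGF-beta on microglia, -0.14 ± 0.16 (SE). The median of the list was 0.06, beside -0.01 over all tested probe sets.

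Of the 10 genes that process or activate the latent complex, 8 were above the filter, and 3 had an unadjusted p under 0.05, 2 of them higher and 1 lower (7.76% and 5.79% over all tested). Mmp9, a gelatinase that can cleave the latent complex, had the largest difference of the 5 lists. It read 15.9, 17.2 and 22.4 in mutant brains, against 39.4, 50.3 and 39.3 in wild-type brains. The groups did not overlap, but the log2 difference of -0.77 ± 0.14 (SE) did not pass the threshold (limma adjusted p = 0.0652). Mmp2, the other gelatinase, read higher, 56.9, 54.4 and 59.5 in mutant against 36.1, 45.3 and 50.5 in wild-type brains (log2 difference 0.29 ± 0.13 SE, adjusted p = 0.359). Plat, tissue plasminogen activator, which yields plasmin and was named after its value was seen, had 0.27 ± 0.08 (SE, adjusted p = 0.194). The list median was 0.04.

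All 9 receptor and Smad genes were above the filter, 5 reading higher and 4 lower, and 1 of them, higher, had an unadjusted p under 0.05, near the 7.76% over all tested. That one was Smad3, which carries the TGF-beta signal to the nucleus, at 132, 140 and 119 in mutant and 94.5, 109 and 110 in wild-type brains (log2 difference 0.28 ± 0.10 SE, limma adjusted p = 0.263). Tgfbr2, the receptor that binds the ligand first, had 0.26 ± 0.15 (SE, adjusted p = 0.488). The list median was 0.09.

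Genes known as TGF-beta targets went both ways. Of 10 genes, 8 had a probe set and 7 were above the filter, with 3 reading higher and 4 lower. Tgfbi, a secreted matrix protein named for its induction by TGF-beta, read 45.6, 41.0 and 66.8 in mutant brains, against 24.7, 37.7 and 33.4 in wild-type brains, on an _x_at probe set, whose probes can match other transcripts. The groups did not overlap, and the log2 difference was 0.48 ± 0.17 (SE, limma adjusted p = 0.284). Ski, a repressor that binds Smads, read lower, 155, 169 and 183 in mutant against 193, 219 and 217 in wild-type brains (log2 difference -0.29 ± 0.09 SE, adjusted p = 0.214). The list median was -0.02.

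**Figure D5:**
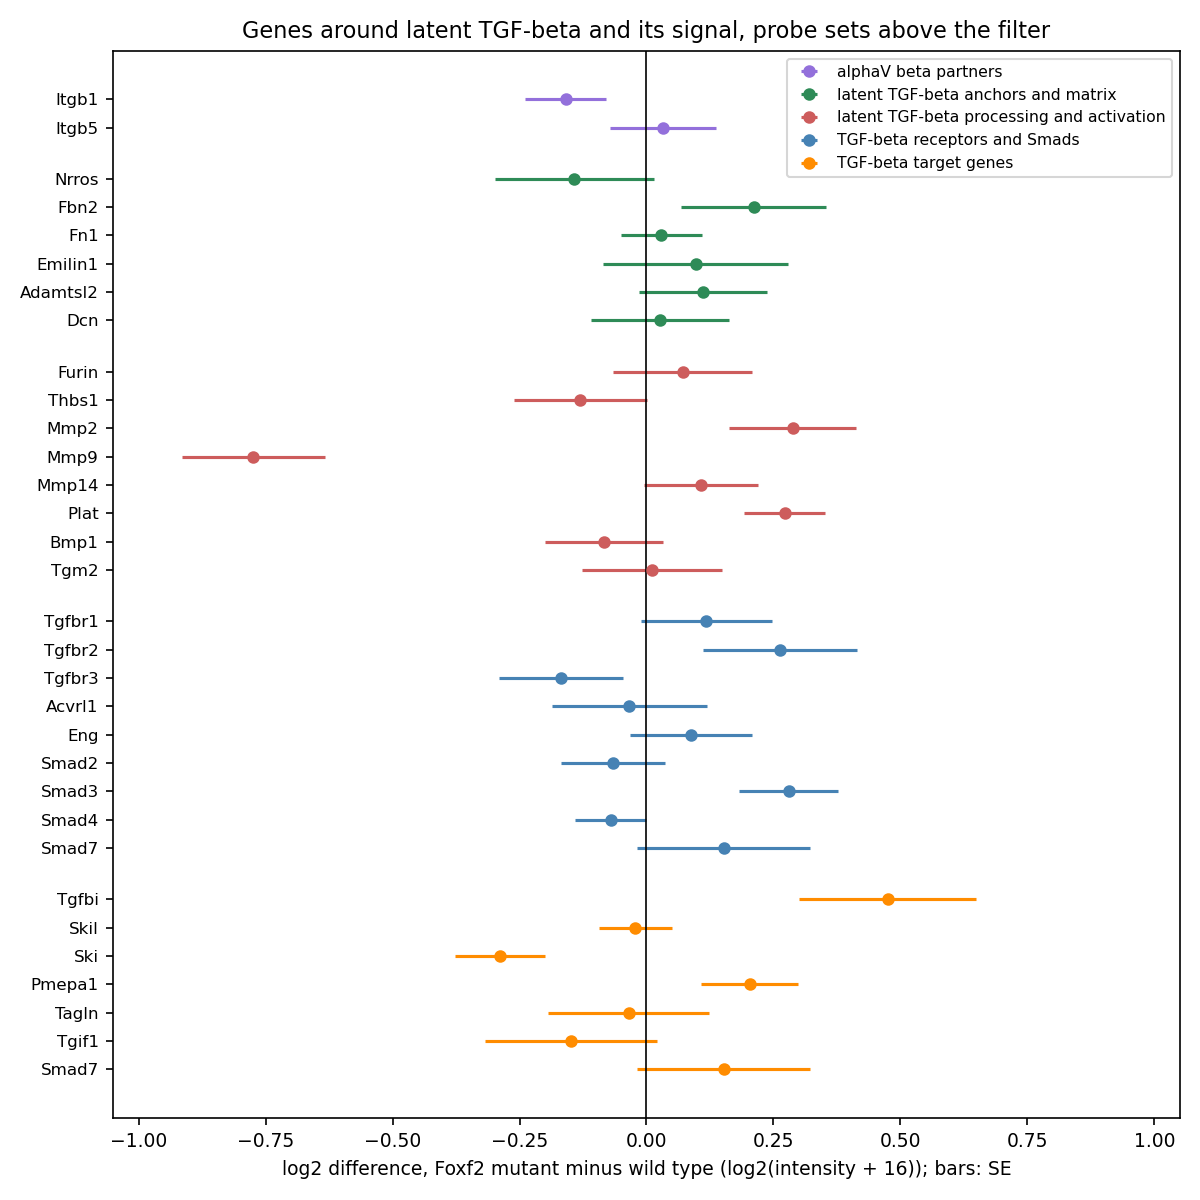
Log2 difference, Foxf2 mutant minus wild type (horizontal axis, SE bars), of the genes in 5 lists around latent TGF-beta and its signal whose probe set was above the filter, 1 probe set per gene, coloured by list. Mmp9 lies lowest at -0.77 and Tgfbi highest at 0.48, and Smad7 appears in both lists that hold it.

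The 5 genes whose profile over the 6 arrays was most like that of Itgb8, by Pearson r of log2 values, were Afap1l2 (r = 0.999), Brat1 (0.997), Fer (0.995), Akr7a5 (0.994) and Fscn1 (0.994). Fer is a cytoplasmic tyrosine kinase and Fscn1 bundles actin filaments. Afap1l2 read 43.6, 43.7 and 41.7 in mutant brains, against 31.8, 33.0 and 33.3 in wild-type brains. None of the 5 passed the threshold, and their log2 differences ran from 0.12 to 0.47, all smaller than that of Itgb8. Because the Itgb8 values fall into separate ranges by genotype, such a likeness mostly says that a profile splits the same way. A value of 0.95 or more was reached by 273 of the other 27021 tested probe sets.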

How the data were processed

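The deposited table holds linear MAS5 intensities, per the submitters' processing notes, which name no version. Their mean without the lowest and highest 2% was 100 on every array, so the authors had scaled them and they were not normalized again, which hides a change in total RNA. Of 45101 probe sets, 64 controls were left out and 45037 were fitted by limma 3.58.1 under R 4.3.3 on log2(value + 16), using lmFit and a trended eBayes, two-sided. Benjamini-Hochberg adjustment covered the 27022 probe sets at or above the 40th percentile of mean log2 value. Probe sets were named through the platform annotation where it gave 1 gene, as for 34945, and 0 probe sets with several genes held a member. The members and gene lists were chosen with earlier results of these data known.

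Every member probe set was named. In each of 5 pathway lists, genes past the threshold or otherwise the 2 with the largest absolute difference above the filter were named, each by its brightest probe set, and so were the 5 genes most like Itgb8. Of 111 list entries, 7 had no probe set. The intensities of each of 10 lists of cell type markers were summed per array, also without the brightest marker. Promoter letters were taken to run with the gene because TATAAA stood just before the start in 288 of 16291 minus-strand windows, and its complement at the mirrored place in 52. Alternatives changed the offset, filter, scaling, variance model, weights, block, probe sets per gene or left out 1 array. The labels do not say whether the 3 arrays of a group come from separate litters. The p-values therefore reflect only the spread among these 6 arrays, whose number limits the precision.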

Additional observations from a re-analysis of the deposited data

How the results depend on the processing

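Across 16 alternatives Itgb8 stayed higher in the mutant, and its difference moved most at an offset of 64, to 0.58 log2 units. It was 0.64 to 0.70 when 1 array was left out. Because Itgb8 was selected for its rise on these same arrays, its sign could hardly turn, and these values describe only its size. For the other member probe sets, the count past the threshold was 0 in all 16 alternatives, also when 1 array was left out. The count over the whole table moved from 105 to 181 at an offset of 1, 64 at an offset of 64, 52 without a filter, 167 with the 60th percentile, 56 with median centring, 0 without the variance trend and 13 with 1 probe set per gene, and leaving out 1 array gave 0 to 34. Signs of small differences turned for 7 member probe sets. Itgav 1421198_at turned to -0.0090 with quantile normalization and -0.017 with median centring, and ran from -0.023 to 0.089 when 1 array was left out. Ltbp1 turned to -0.017 and -0.0070 under the same scalings, and ran from -0.048 to 0.216. When 1 array was left out, Ltbp3 1418049_at ran from -0.156 to 0.060, Ltbp4 from -0.24 to 0.011, Tgfb3 from -0.083 to 0.167, Tgfb2 1450923_at from -0.185 to 0.017 and Tgfb2 1423250_a_at from -0.094 to 0.023. The cause was not tested. The 60th percentile and 1 probe set per gene each left 7 of the 12 other member probe sets to test, so the rest have no value there. With the replicate number as a block, the whole table gave 220 calls, Itgb8 kept 0.68 and 0 other member probe sets passed. Same-numbered arrays deviated together with weak correlations of 0.19, 0.13 and 0.09, each array correlating best with its own number. The labels state no pairing, and whether the numbers mark one was not tested. The intensity of 13.2 is the level of the filter, and no detection limit was measured. Values of probe sets near or below it are dim and call for caution.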
